A study of Homo sapiens with 6 samples.

Results

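The genes described here encode readers, writers and erasers of histone modifications, and were chosen by the gene symbol that the array's annotation gives to a probe. A probe was a member if its symbol was PHF, KMT, SETD, JADE, BRD, BRPF, ASXL, CBX or HDAC followed by a number and at most 1 letter, or KDM followed by a digit and a letter, with KDM3A left out. It also had to have a detection p-value below 0.05 on at least 2 of the 6 arrays. These values chose the members and are not a result. The symbols matched 124 probes of 79 genes, of which 95 probes of 70 genes passed the detection rule, out of 22377 detected probes among 47323 in all. All samples were HEK293, an established cell line of human embryonic kidney origin, grown in high-glucose DMEM with serum. They were left untreated (the 0 min negative control), or incubated at 37 °C with 50 mM sodium salicylate, the active breakdown product of aspirin, for 30 or 60 min. Each of the 3 groups had 2 arrays. No sample was labelled as mock-treated, so handling, time in the incubator and the added sodium salt cannot be told apart from salicylate.

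Histone tails carry methyl and acetyl groups that mark active and silent chromatin. KMT and SETD enzymes add methyl groups to lysines and KDM enzymes remove them, while HDAC enzymes remove acetyl groups. PHD fingers bind histone tails according to their methylation, bromodomains bind acetylated lysines, and the chromodomains of CBX proteins bind methylated lysines in silent chromatin. Many of these proteins work as parts of larger complexes.

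Arrays detected between 20726 and 21740 probes, with a median intensity between 143.1 and 147.6. Values are log2 normalized intensities after background correction, each gene by its detected probe with the highest mean, and 12547 genes were tested together. Of 9 markers fixed for HEK293 cells 8 were detected, PAX2 being the exception. Of the 16 markers of blood, fibroblasts, hepatocytes and endothelium that had a probe, 7 were detected (CD14, COL1A1, COL3A1, DCN, LUM, ALB and APOA1). Raw intensities, without background correction, were summed over every probe of a list, detected or not. The sums over the 6 arrays lay at 1340 to 1565 for blood and 1439 to 1593 for fibroblast markers. They were 593 to 630 for hepatocyte and 300 to 327 for endothelial markers. Undetected probes add background and the lists differ in length, so the sums do not compare cell types. The HEK293 markers summed to 44904 to 57133. The sum for blood markers was 1396 to 1475 in controls, 1514 to 1565 at 30 min and 1340 to 1355 at 60 min, and its part in the results was not tested. PTPRC, CD3E, HBB, HBA1, COL1A2, TTR, PECAM1, CDH5 and VWF were detected on no array. Whether both arrays of a group hold RNA of separate cultures is not stated in the labels, and the p-values reflect the spread between the arrays alone, which may be technical. For a single value, an exact permutation test of 2 arrays against 2 could not give a p below 0.333.

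After 60 min of salicylate more of the chromatin regulators were lower than higher. Of the 70 genes, 24 fell and 4 rose against control, together 40%, and the other 42 did not pass the threshold (limma, Benjamini-Hochberg adjusted p under 0.05 over all 12547 genes). Over all genes tested 22.9% passed it, with 12.3% lower and 10.5% higher, against 34.3% lower and 5.71% higher among these 70. Their median log2 difference was -0.159, beside -0.00826 for all genes, with quartiles of -0.349 and -0.0134. Most changes were modest: the median size of the 24 falls was 0.414 on the log2 scale, and the fall of JADE2 alone reached 2-fold. Both 60 min arrays lay below both control arrays in 41 of the 70 genes and above both in 8, where the shares over all genes were 31.6% and 28.9%. Set against the control mean, the median member stood at -0.125 and -0.158 on the 2 arrays at 60 min, and at -0.0431 and -0.0338 on those at 30 min. The count depended on the controls and on the variance model: 17 genes were called without control replicate 1 (15 lower), 12 without control replicate 2 (11 lower), and 12 when the variances were moderated without a trend in intensity (11 lower). In each of these settings no gene changed direction among those called.

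**Figure D1:**
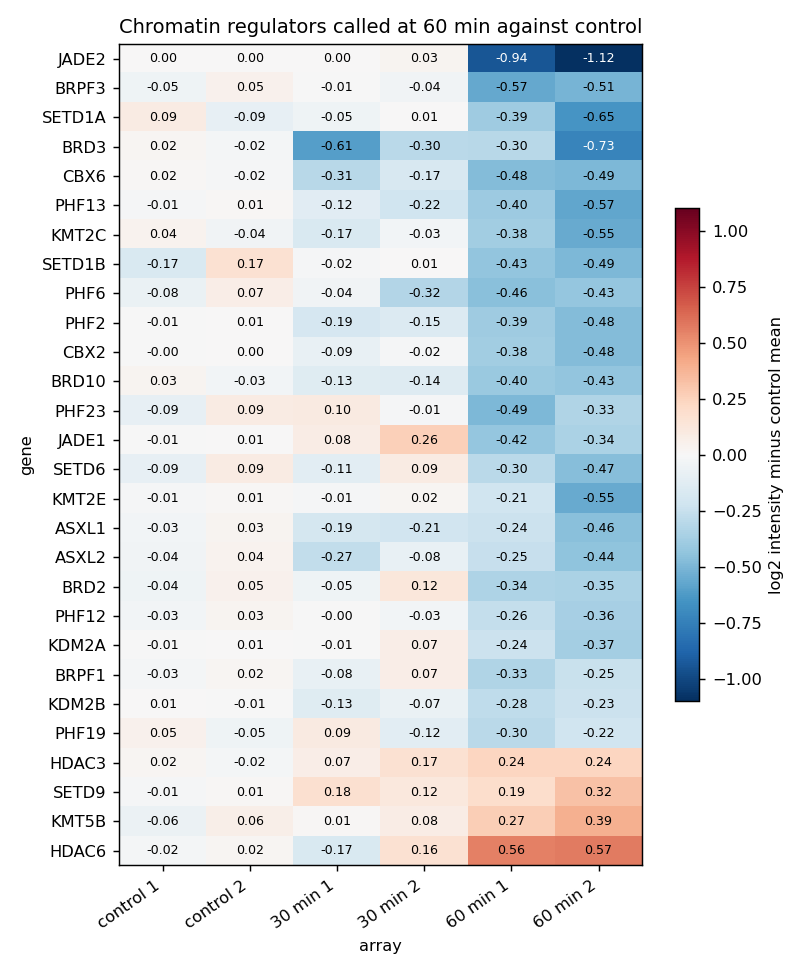
Log2 intensity minus the control mean for the 28 genes called at 60 min against control (rows, ordered by their change), on each of the 6 arrays (columns). Blue cells are below the control mean and red cells above it; both 60 min arrays are blue for all 24 genes that fell and red for HDAC3, SETD9, KMT5B and HDAC6.

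At 30 min none of the 70 genes passed the threshold, where 0.327% of all genes did (0.151% higher, 0.175% lower). At an unadjusted p under 0.05, 7 of the 70 passed (10%), beside 11.2% of all genes. The median log2 difference of the members was -0.0194, and 44 were below and 26 above their control mean. The lowest adjusted p belonged to CBX6 (0.195, log2 difference -0.24) and the largest negative difference to BRD3 (-0.45, adjusted p = 0.228). BRD3 passed the threshold at 30 min in 3 of 15 other settings, which were the fit of the 2 groups alone and the fits without either 60 min array.

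All of PHF13, PHF6 and JADE2 fell at 60 min. PHF13, a PHD finger protein that reads trimethylated H3K4 and acts in chromatin compaction, had log2 intensities of 11.90 and 11.93 in controls, 11.79 and 11.70 at 30 min and 11.52 and 11.35 at 60 min. The 3 groups did not overlap, with controls highest and 60 min lowest. The log2 difference was -0.17 at 30 min, which did not pass the threshold, and -0.48 ± 0.067 (SE, n = 2 arrays per group, limma adjusted p = 0.00064) at 60 min, with -0.31 between 30 and 60 min (adjusted p = 0.00707). PHF6, a nucleolar PHD protein of the X chromosome whose mutations cause intellectual disability, had 7.86 and 8.01 in controls, 7.90 and 7.62 at 30 min and 7.48 and 7.51 at 60 min. The 30 min arrays of PHF6 overlapped the controls, and the 60 min arrays were lowest. Its fall at 60 min was -0.44 ± 0.12 (adjusted p = 0.0233). The other detected probe of PHF6 gave -0.53. The call of PHF6 was lost when any 1 control or 60 min array was left out (highest adjusted p 0.162 over 15 settings), and its difference was -0.29 without background correction. JADE2, a scaffold of the HBO1 histone acetyltransferase complex, had 9.08 on both control arrays, 9.08 and 9.11 at 30 min and 8.13 and 7.96 at 60 min. Its 30 min arrays lay at the level of the controls and both 60 min arrays were well below them. The difference was 2.04-fold, or -1.03 ± 0.090 on the log2 scale (adjusted p = 5.1e-05), and -0.80 without background correction.

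The stretches upstream of the start are shown for PHF13, BRPF3 and CBX6. These genes fell at 60 min in every setting tried and have a single start in the RefSeq promoter table. The same held for PHF2 and SETD1A, which are not shown. The stretches are the 250 bases before the start on the gene's strand (GRCh38.p14), in lower case. GC boxes (GGGCGG, or CCGCCC on the other strand) and CCAAT boxes (CCAAT, or ATTGG on the other strand) are in capitals. They lie at chr1:6613481-6613730 (plus strand), chr6:36196494-36196743 (plus strand) and chr22:38872217-38872466 (minus strand).
PHF13: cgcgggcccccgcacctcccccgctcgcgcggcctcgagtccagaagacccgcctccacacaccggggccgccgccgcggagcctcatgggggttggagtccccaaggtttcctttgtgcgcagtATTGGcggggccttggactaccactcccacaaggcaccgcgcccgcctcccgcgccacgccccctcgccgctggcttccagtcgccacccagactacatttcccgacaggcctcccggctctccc
BRPF3: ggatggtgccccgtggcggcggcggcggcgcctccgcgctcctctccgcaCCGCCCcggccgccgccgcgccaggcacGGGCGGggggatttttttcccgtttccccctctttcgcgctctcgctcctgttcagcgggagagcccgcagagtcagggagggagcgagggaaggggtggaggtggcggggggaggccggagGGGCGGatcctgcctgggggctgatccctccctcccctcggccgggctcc
CBX6: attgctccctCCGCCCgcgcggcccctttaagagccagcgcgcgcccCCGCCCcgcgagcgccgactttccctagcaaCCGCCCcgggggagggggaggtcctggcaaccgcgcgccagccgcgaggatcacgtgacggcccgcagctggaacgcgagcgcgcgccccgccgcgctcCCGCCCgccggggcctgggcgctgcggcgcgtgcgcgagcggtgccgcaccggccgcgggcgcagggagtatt
The GC content of these windows was 72.4%, 76% and 79.2%, with 27, 29 and 45 CpG dinucleotides. PHF13 held 1 CCAAT box and 0 GC boxes, BRPF3 held 3 GC boxes and CBX6 held 4.

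Of the 15 PHF genes 6 fell (40%) and 0 rose at 60 min, beside 12.3% and 10.5% of all genes. Their median log2 difference was -0.256. PHF13 and PHF6 are described above. PHF2, a JmjC protein linked to removal of methyl groups from H3K9, had 9.86 and 9.87 in controls, 9.67 and 9.71 at 30 min and 9.47 and 9.39 at 60 min. Its groups did not overlap and its difference at 60 min was -0.44 ± 0.071 (adjusted p = 0.00153), a call kept in all 15 other settings. PHF23, a reader of trimethylated H3K4, had 10.17 and 10.36 in controls, 10.36 and 10.25 at 30 min and 9.77 and 9.94 at 60 min. Both 60 min arrays were below the other 4, with a difference of -0.41 ± 0.085 (adjusted p = 0.00532). PHF12, a subunit of a Sin3 corepressor complex, changed by -0.31 ± 0.068 (adjusted p = 0.00687). PHF19, a Polycomb-like partner of PRC2, changed by -0.26 ± 0.084 (adjusted p = 0.0464), the weakest of these calls. The calls of PHF12 and PHF23 were lost without control replicate 2, and that of PHF19 without any 1 of the control or 60 min arrays (highest adjusted p 0.0727, 0.0747 and 0.247 over 15 settings).

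The other 9 PHF genes did not pass the threshold at 60 min, and 8 of them had negative differences. PHF14 and PHF21B had -0.26 (95% interval -0.47 to -0.05, adjusted p = 0.0676) and -0.31 (-0.59 to -0.02, adjusted p = 0.115). PHF10, a subunit of the PBAF remodelling complex, had -0.20 (adjusted p = 0.0764). PHF20, of the MOF acetyltransferase complex, had -0.15, and PHF21A, of the LSD1 corepressor complex, had -0.13. PHF3, which binds the tail of RNA polymerase II, had log2 intensities of 12.32 and 12.29 in controls and 12.24 and 12.32 at 60 min. These groups overlapped, and the interval of its difference ran from -0.15 to 0.10. PHF5A, a splicing factor of the SF3b complex that shares the name through its PHD-like fold, had 11.67 on both control arrays and 11.67 and 11.65 at 60 min. PHF1, the other Polycomb-like protein here, had -0.15 on its brightest probe.

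**Figure D2:**
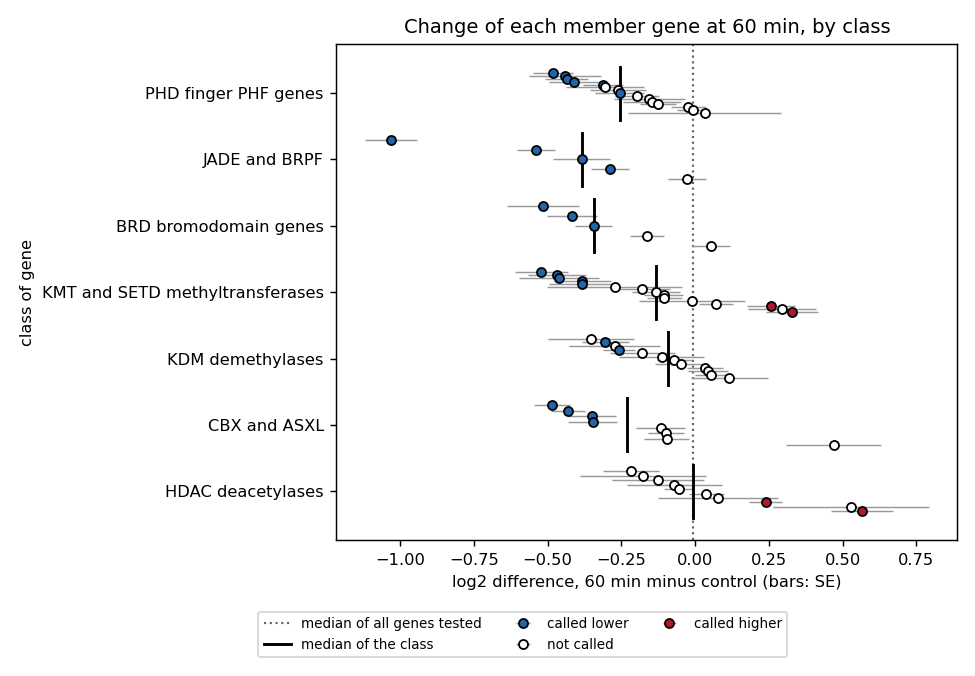
Log2 difference of 60 min minus control for each of the 70 genes (points, with SE bars), by class, with the class median as a vertical line and the median of all genes tested as a dotted line. Blue and red points passed the threshold; the class medians run from -0.385 for JADE and BRPF to -0.00802 for the HDAC genes.

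The scaffold genes of the HBO1 and MOZ acetyltransferase complexes were the class with the largest median difference, at -0.385. Of these 5 genes 4 fell (80%), beside 12.3% of all genes. The median is the value of JADE1 on its brightest probe, and another JADE1 probe detected on all 6 arrays gave 0.04. With that other probe the median would be the -0.29 of BRPF1, smaller in size than the BRD median of -0.344. The rank of this class and the fall of JADE1 therefore depend on the probe used. JADE2 is given above. BRPF3 had 10.71 and 10.81 in controls, 10.75 and 10.72 at 30 min and 10.20 and 10.25 at 60 min. The controls and 30 min arrays lay together and both 60 min arrays were below them, by -0.54 ± 0.065 (adjusted p = 0.000334), in every setting tried. BRPF1 had 12.11 and 12.16 in controls, 12.05 and 12.20 at 30 min and 11.80 and 11.88 at 60 min. Its 60 min arrays were also the 2 lowest (-0.29 ± 0.064, adjusted p = 0.00763), with the call lost without control replicate 2 (highest adjusted p 0.0727 over 15 settings). JADE1, which like JADE2 holds HBO1 in its complex, had 8.46 and 8.48 in controls, 8.55 and 8.73 at 30 min and 8.05 and 8.12 at 60 min. It was highest at 30 min and lowest at 60 min, and its fall against control was -0.39 ± 0.097 (adjusted p = 0.0146), lost without either control array (highest adjusted p 0.0891 over 15 settings). JADE3, of the X chromosome, had 11.05 and 11.16 in controls and 11.13 and 11.03 at 60 min. These overlapped, and the interval of the difference ran from -0.17 to 0.11.

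Of the 5 BRD genes 3 fell (60%) and 0 rose at 60 min, beside 12.3% and 10.5% of all genes. Their median was -0.344. BRD2, a BET protein that couples acetylated histones to transcription, had 13.87 and 13.96 in controls, 13.87 and 14.04 at 30 min and 13.58 and 13.57 at 60 min. Its 30 min arrays overlapped the controls and both 60 min arrays were lower (-0.34 ± 0.063, adjusted p = 0.00269). The call of BRD2 was lost without the intensity trend (highest adjusted p 0.0515 over 15 settings). BRD3, also a BET protein, had 11.004 and 10.958 in controls, 10.37 and 10.68 at 30 min and 10.68 and 10.25 at 60 min. All 4 treated arrays of BRD3 were below the controls, and the 2 arrays of a time differed by more than the times did. Its difference at 60 min was -0.52 ± 0.12 (adjusted p = 0.0111). It was -0.73 without 60 min replicate 1 and -0.30 without 60 min replicate 2, where the call was lost (adjusted p = 0.0635), as it was without either control array (adjusted p = 0.0825 and 0.0641). BRD10 had -0.42 ± 0.086 (adjusted p = 0.00506), lost without control replicate 1 (highest adjusted p 0.0518 over 15 settings), and -0.11 on its other probe. BRD9, of the noncanonical BAF complex, had -0.16 (interval -0.29 to -0.04, adjusted p = 0.0569), and BRD7, of PBAF, had 0.05 (interval -0.09 to 0.19).

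Among 15 KMT and SETD genes 5 fell (33.3%) and 2 rose (13.3%) at 60 min, beside 12.3% and 10.5% of all genes. Their median was -0.134. SETD1A, a catalytic subunit of the COMPASS complexes that methylate H3K4, had 10.80 and 10.62 in controls, 10.66 and 10.72 at 30 min and 10.32 and 10.06 at 60 min. The first 2 groups overlapped and the 60 min arrays were below both (-0.52 ± 0.090, adjusted p = 0.00201), in every setting tried. SETD1B, its paralogue, had 7.26 and 7.59 in controls, 7.41 and 7.43 at 30 min and 6.99 and 6.93 at 60 min, a difference of -0.46 ± 0.14 (adjusted p = 0.0307). KMT2C, which methylates H3K4 at enhancers, had 8.71 and 8.64 in controls, 8.51 and 8.64 at 30 min and 8.29 and 8.12 at 60 min. Its difference was -0.47 ± 0.098 (adjusted p = 0.00565), and its 3 detected probes lay between -0.49 and -0.41. KMT2E, a relative that reads trimethylated H3K4, had -0.38 ± 0.11 (adjusted p = 0.0299), with 8.28 and 7.94 on the 60 min arrays against 8.48 and 8.50 in controls. SETD6, a methyltransferase of the NF-kappaB subunit RELA, had -0.38 ± 0.096 (adjusted p = 0.0143). Without the intensity trend SETD1B, KMT2E and SETD6 were not called, and without the detection filter SETD1B and KMT2E were not. The calls of SETD1B and SETD6 were lost without control replicate 2 or 60 min replicate 2, that of KMT2C without control replicate 1, and that of KMT2E without either control or 60 min replicate 2. Over 15 settings their highest adjusted p was 0.253, 0.141, 0.0578 and 0.184, and the difference of KMT2E without 60 min replicate 2 was -0.22 while that of SETD1B was -0.29 without control replicate 2 and -0.27 without background correction.

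The 2 members of this class that rose were KMT5B and SETD9. KMT5B, which adds the further methyl groups to H4K20 once the initial one is in place, had 8.71 and 8.84 in controls, 8.79 and 8.86 at 30 min and 9.04 and 9.16 at 60 min. Its 60 min arrays were the 2 highest, by 0.33 ± 0.088 (adjusted p = 0.0196), and its other probe gave 0.57. In 5 of 15 settings KMT5B was not called, among them median scaling and the omission of any control array or of 60 min replicate 2 (highest adjusted p 0.296). SETD9 had 9.02 and 9.04 in controls, 9.20 and 9.14 at 30 min and 9.22 and 9.35 at 60 min. Its rise of 0.26 ± 0.081 (adjusted p = 0.0398) was lost in 10 of 15 settings, among them those omitting any control or 30 min array or 60 min replicate 2 (highest adjusted p 0.509), and was 0.16 with median scaling. Of the remaining 8, SETD4 had the largest difference, with 7.44 and 7.31 in controls and 7.71 and 7.63 at 60 min. Both 60 min arrays of SETD4 were higher, by 0.29 (interval 0.04 to 0.55), which did not pass the threshold (adjusted p = 0.0857). KMT2A had -0.18 (interval -0.40 to 0.03), KMT2B -0.11 (-0.25 to 0.04) and SETD2, the trimethylase of H3K36, -0.10 (-0.24 to 0.03). KMT5A, which places the first methyl group on H4K20, had -0.13, and KMT5C, which with KMT5B adds the others, -0.01. SETD3, a histidine methyltransferase of actin, had 12.29 and 12.38 in controls and 12.45 and 12.36 at 60 min, which overlapped.

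**Figure D3:**
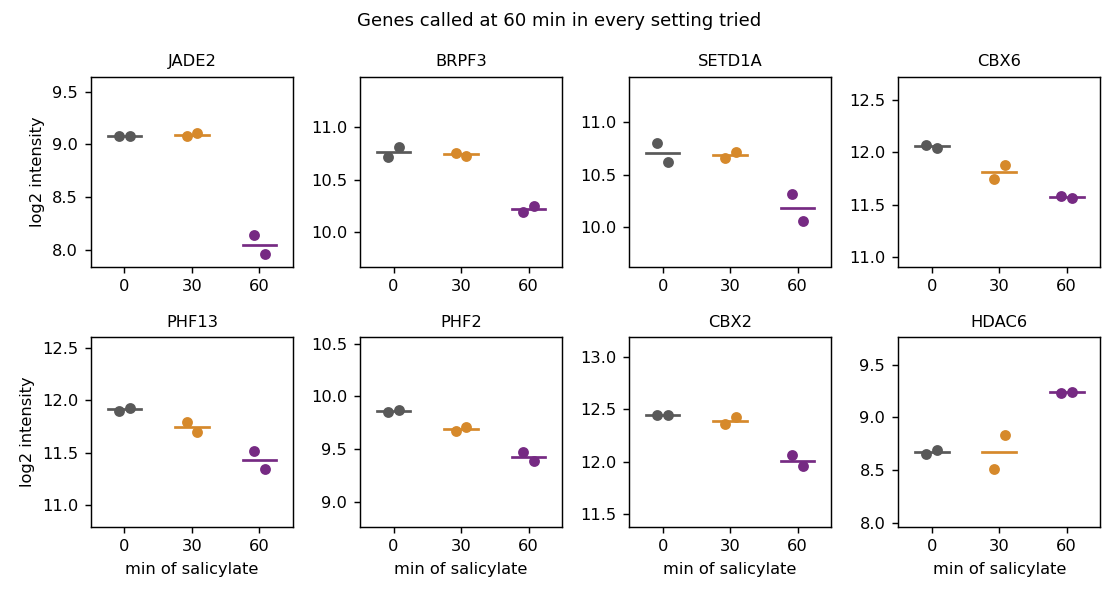
Log2 intensity on each array (points) and group mean (lines) at 0, 30 and 60 min of salicylate, for the 8 genes called at 60 min against control in all 15 other settings. Each panel spans the same range of log2 units; 7 genes are lowest at 60 min and HDAC6 is highest there.

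Of 12 KDM demethylase genes 2 fell and 0 rose at 60 min, beside 22.9% of all genes called in either direction, with a median of -0.0922. Both genes that fell encode H3K36 demethylases with a CXXC domain that binds unmethylated CpG. KDM2B, which also brings a variant PRC1 complex to CpG islands, had 12.74 and 12.72 in controls, 12.60 and 12.66 at 30 min and 12.45 and 12.49 at 60 min. Its groups did not overlap (-0.26 ± 0.053, adjusted p = 0.005), while its other probe gave 0.38, which did not pass the threshold. KDM2A had 9.41 and 9.43 in controls, 9.41 and 9.49 at 30 min and 9.18 and 9.05 at 60 min (-0.31 ± 0.080, adjusted p = 0.0174). The call of KDM2A did not hold without control replicate 1, control replicate 2 or 60 min replicate 2 (highest adjusted p 0.0986 over 15 settings), and that of KDM2B with median scaling and without the intensity trend (highest adjusted p 0.0605). KDM4A, which acts on H3K9 and H3K36, had -0.35 with an interval of -0.67 to -0.03 (adjusted p = 0.106). KDM4D, its relative, had 6.99 and 6.82 in controls, 7.10 and 7.16 at 30 min and 6.80 and 6.47 at 60 min. It did not differ from control beyond the threshold (-0.27, adjusted p = 0.226), and it fell between 30 and 60 min by 0.49 on the log2 scale (adjusted p = 0.0366). This call was lost in 9 of 15 settings (highest adjusted p 0.184), among them those without either control, either 30 min array or 60 min replicate 2, and the fall was 0.26 without background correction. KDM1A, the LSD1 demethylase of H3K4, had 12.67 and 12.74 in controls and 12.74 and 12.77 at 60 min, with an interval of -0.06 to 0.17. KDM6A, the H3K27 demethylase UTX, had an interval of -0.10 to 0.17.

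Among the 8 CBX and ASXL genes 4 fell (50%) and 0 rose at 60 min, beside 12.3% and 10.5% of all genes. Their median was -0.233. CBX6 and CBX2, chromodomain subunits of PRC1 that bind methylated H3K27, fell in every setting tried. CBX6 had 12.07 and 12.04 in controls, 11.75 and 11.88 at 30 min and 11.58 and 11.56 at 60 min (-0.48 ± 0.060, adjusted p = 0.000377). Its 3 groups did not overlap, whereas for CBX2 the 30 min arrays lay close to the controls. CBX2 had 12.44 on both controls, 12.36 and 12.43 at 30 min and 12.06 and 11.96 at 60 min (-0.43 ± 0.057, adjusted p = 0.000494). ASXL1, which activates the BAP1 deubiquitinase of histone H2A, had 10.16 and 10.23 in controls, 10.00 and 9.98 at 30 min and 9.95 and 9.73 at 60 min. All 4 treated arrays were below the controls, with -0.35 ± 0.080 (adjusted p = 0.00912) at 60 min. ASXL2, its paralogue, had -0.35 ± 0.083 (adjusted p = 0.0113), with 10.44 and 10.64 at 30 min against 10.68 and 10.76 in controls. Both ASXL calls were lost without control replicate 2 or 60 min replicate 2, and that of ASXL2 also without control replicate 1 (highest adjusted p 0.0857 and 0.0998 over 15 settings).

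The remaining PRC1 subunit in the class, CBX7, had 7.31 and 6.98 in controls, 6.87 and 7.29 at 30 min and 7.621 and 7.601 at 60 min. Both 60 min arrays were above the other 4. Its difference from control was 0.47 (interval 0.12 to 0.82), with an adjusted p of 0.0547, and it rose between 30 and 60 min by 0.53 (adjusted p = 0.0338, at most 0.265 over 15 settings, lost without 30 min replicate 1 or either 60 min array, and 0.32 without background correction). CBX1, CBX3 and CBX5, the HP1 proteins of heterochromatin, did not pass the threshold, with -0.10, -0.12 and -0.10 and intervals that held 0. For CBX5 the 30 min arrays, at 10.76 and 10.73, were below both the controls (10.96 and 10.95) and the 60 min arrays (10.90 and 10.81).

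Of 10 HDAC genes 2 rose and 0 fell at 60 min, a share called (20%) near the 22.9% of all genes, with a median of -0.00802. HDAC6, a mainly cytoplasmic deacetylase of tubulin, had 8.66 and 8.69 in controls, 8.51 and 8.84 at 30 min and 9.23 and 9.24 at 60 min. The 30 min arrays lay on either side of the controls and both 60 min arrays were above them all. Its rise was 1.48-fold, or 0.56 ± 0.11 on the log2 scale (adjusted p = 0.00309), in every setting tried. HDAC3, the deacetylase of the NCoR and SMRT complexes, had 11.90 and 11.85 in controls, 11.95 and 12.04 at 30 min and 12.11 and 12.12 at 60 min. Its groups did not overlap and the difference was 0.24 ± 0.057 (adjusted p = 0.011), lost with median scaling and without control replicate 2 (highest adjusted p 0.262 over 15 settings). HDAC1 and HDAC2, the catalytic pair of the Sin3, NuRD and CoREST complexes, did not pass the threshold. HDAC1 had 13.98 and 13.90 in controls and 13.86 and 13.91 at 60 min, with an interval of -0.17 to 0.06 for the difference. HDAC2 had 13.34 and 13.45 in controls and 13.37 and 13.50 at 60 min, with an interval of -0.09 to 0.17. HDAC8 had 8.215 and 8.28 in controls and 8.063 and 7.995 at 60 min, both lower, with a difference of -0.22 (interval -0.43 to -0.01) that did not pass (adjusted p = 0.123). HDAC9 had 5.48 and 6.30 in controls, so that its difference of 0.53 had an interval of -0.05 to 1.11, the widest of those given here.

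Where a gene had more than 1 detected probe, the probes often disagreed. Of the 95 member probes, 27 were lower and 4 higher at 60 min against control in a fit over all 22377 detected probes, of which 16.3% passed (8.54% lower, 7.73% higher). Of 20 genes with more than 1 detected probe, 13 had differences of the same sign at 60 min and 10 had the same call on every probe. Among these 10, PHF6 and KMT5B were called in the same direction on both probes (-0.44 and -0.53, and 0.33 and 0.57). The rest of the 10 had no probe called. How often probes of a gene disagree over all genes was not measured. For CBX2 and KDM2B the second probe went the other way without passing the threshold, at 0.46 (adjusted p = 0.142) and 0.38 (adjusted p = 0.193). These 2 probes had mean control values of 5.75 and 6.04, near the lower end of the scale. JADE1 had -0.39 on its brightest probe and 0.04 on another. A further probe of JADE1, counted among the 27, was not above background on either 60 min array, so no fold is given for it. PHF1 passed on 1 of 3 probes (-0.36, adjusted p = 0.0467), with -0.55 and -0.15 on the others. PHF19 had -0.26, -0.08 and 0.20 on its probes, none of which passed in this fit. HDAC2, PHF3 and PHF5A also had probes of both signs, none called. BRD10, BRPF1, KMT2C, KMT2E, PHF12 and PHF2 had negative differences on every probe and a call on some of them, the second probe of PHF2 being at -0.06.

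**Figure D4:**
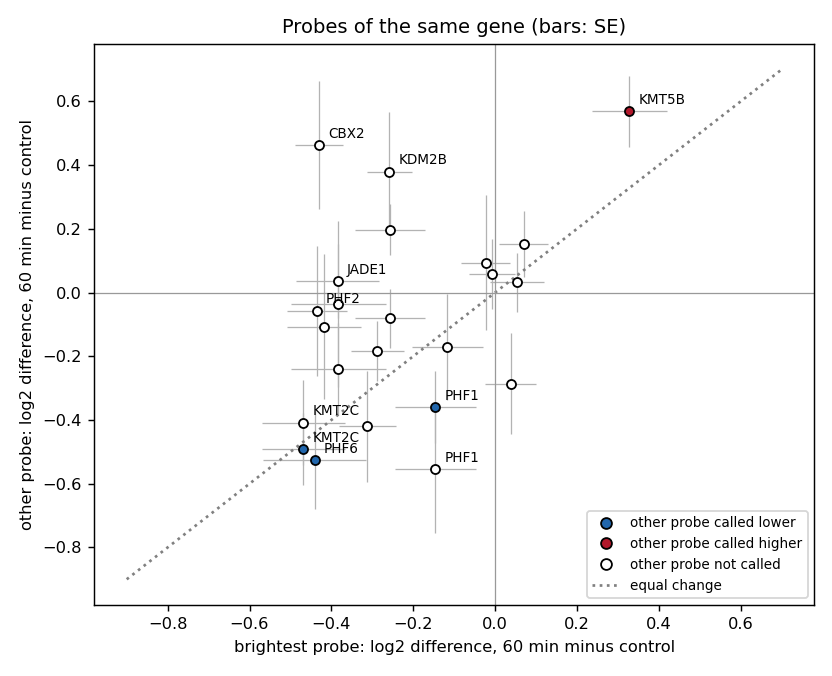
Log2 difference of 60 min minus control for the brightest probe of a gene (horizontal axis) and each other detected probe of that gene (vertical axis), with SE bars, in the fit over all detected probes. Probes not above background on either array of a group are left out. The dotted line marks equal change; PHF6, KMT2C and KMT5B lie close to it or beyond it in the same direction, and the second probes of CBX2 and KDM2B lie above 0 while the first are below.

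Between 30 and 60 min 20 of the 70 genes fell and 3 rose, where 22.6% of all genes passed the threshold (11.7% lower, 10.9% higher). This comparison shares the 60 min arrays with that against control. By class the falls numbered 4 of 15 PHF, 4 of 5 JADE and BRPF, 3 of 5 BRD, 5 of 15 KMT and SETD, 2 of 12 KDM, 2 of 8 CBX and ASXL and 0 of 10 HDAC genes. JADE2 fell by 1.05 on the log2 scale (SE 0.090), JADE1 by 0.55 and BRPF3 by 0.52. HDAC6, CBX7 and KMT5B rose. The count fell when either 30 min array or 60 min replicate 2 was left out. That of all genes fell likewise without either 30 min array, and by a smaller share without 60 min replicate 2. The members' median was -0.127 without 30 min replicate 1, -0.119 without 30 min replicate 2 and -0.107 without 60 min replicate 2.

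Genes of the complexes in which these proteins work, taken from lists by function that the symbol rule does not cover, were measured beside them. Of 147 related genes, 37 fell (25.2%) and 8 rose (5.44%) at 60 min, beside 12.3% and 10.5% of all genes, with a median of -0.067. At 30 min 0 of them passed, beside 0.327% of all genes. Of 6 partners of ASXL proteins in the BAP1 deubiquitinase complex 5 fell, among them the forkhead proteins FOXK1 (-0.60 ± 0.095, adjusted p = 0.00129) and FOXK2 (-0.58 ± 0.13, adjusted p = 0.00781). Of 13 COMPASS and MLL subunits 6 fell, with WDR82, a partner of SETD1A and SETD1B, at -0.44 and RBBP5 at -0.32. PSIP1, the chromatin tether LEDGF, rose by 0.51. Of 10 PRC2 genes 3 fell, with EPOP at -0.49 and AEBP2 at -0.41, and RBBP7 rose by 0.36. Of 16 PRC1 genes 4 fell, with BMI1 at -0.34 and RYBP at -0.31, and YAF2 rose by 0.28.

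Beside 22.9% of all genes, the share called in the remaining lists was 26.3% of other SET and lysine methyltransferases, 23.5% of other PHD finger and bromodomain proteins, 21.7% of HDAC partners, 25% of other JmjC proteins, 16.7% of JADE and BRPF partners, 12.5% of arginine methyltransferases and 50% of sirtuins. Of 19 genes listed as other SET and lysine methyltransferases 4 fell, with NSD3 at -0.53 and SETBP1 at -0.39, and SETMAR rose by 0.24. SETBP1 binds the SET protein and is not a methyltransferase, but it is counted in this list and its share. Of 34 other PHD finger and bromodomain proteins 6 fell, with MLLT6 at -0.50 and TAF3 at -0.48, and 2 rose, SP110 by 0.41 and BRWD1 by 0.23. Of 23 partners of HDAC enzymes 4 fell, with GATAD2A of NuRD at -0.49 and ING2 of the Sin3 complex at -0.47, and MTA3 rose by 0.20. Among 6 partners of JADE and BRPF proteins 1 fell, the acetyltransferase KAT6A at -0.33. Of 8 other JmjC proteins 2 fell (RIOX1 at -0.43, JMJD8 at -0.28), and of 8 arginine methyltransferases 1 fell (PRMT6 at -0.25). Of 6 sirtuins, the NAD-dependent deacetylases, SIRT4 and SIRT7 fell by 0.47 and 0.33 and SIRT5 rose by 0.53.

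**Figure D5:**
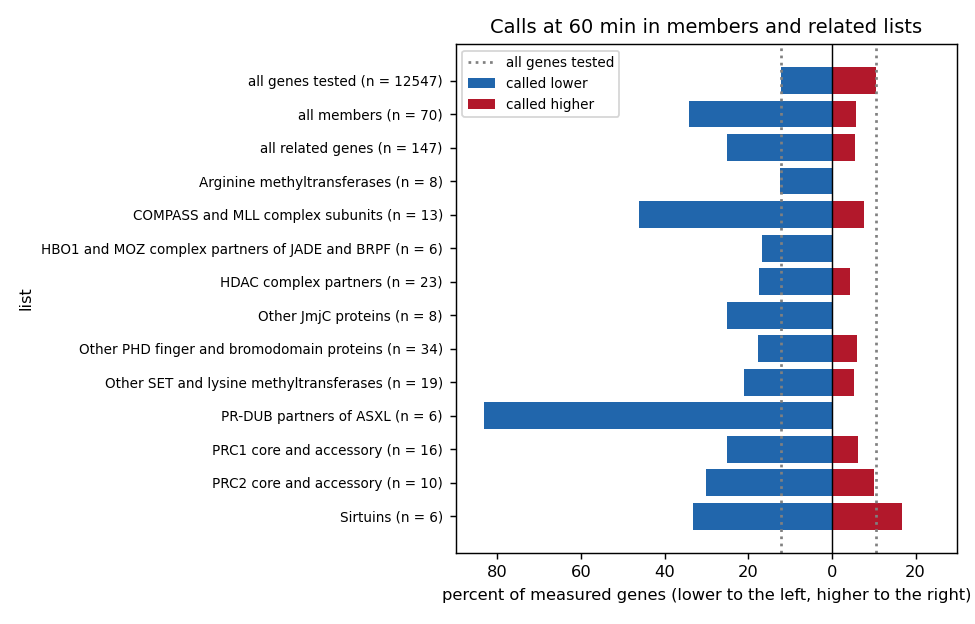
Percent of measured genes called lower (left, blue) and higher (right, red) at 60 min against control, for all genes tested, the 70 members and the related lists, with the number measured in each. Dotted lines mark the shares over all genes (12.3% lower, 10.5% higher); lists of 6 to 13 genes move by many points with a single gene.

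The rule did not use promoters or gene length. For a gene with several starts only the first one listed was used, and JADE2 has 6 listed and HDAC6 has 3. A promoter was found for 64 of the 70 genes. Their median GC content was 69.5% (all genes tested: 65%), with a median of 31 CpG in 300 bases (all: 26). For the members that fell the medians were 69.7% and 33, and for those that did not pass 68.7% and 30. The TATA motif (TATAAA, either strand) was in 0 of the 64, in 6.15% of promoters of the genes tested and in 12% of all 27305 promoters searched. The GC box was in 48 of 64 (75%), 68.9% of those of the genes tested and 44.6% of all. CCAAT was in 21 of 64 (32.8%), beside 37% and 35.7%. The genes were long, with a median of 49.1 kb against 28.5 kb for all tested. Those that fell had a median of 47.4 kb and those that did not pass 54.2 kb.

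At the edge of the detection rule, HDAC10, PHF8 and SETD7 were each detected on 2 arrays, 1 control and 1 at 60 min, and not on either 30 min array, so no fold is given for them. Their raw intensities ran from 129.6 to 172.6, and the second probe of HDAC7, also on 2 arrays, had 108.2 to 178.2. Just outside the rule, second probes of HDAC5 and JADE3 and another probe of KDM2B were detected on 1 array each, with 118.4 to 166.8. The other 26 probes left out were detected on no array, and 9 genes had no detected probe, among them HDAC4, KDM6B, KMT2D and ASXL3. Of the 95 member probes 86 were detected on all 6 arrays, and none was detected in 1 group only.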

How the data were processed

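Total RNA was amplified to biotinylated cRNA with an oligo(dT) T7 primer and put on Illumina expression bead arrays, per the labels' protocols. The authors deposited a linear intensity for each of 47323 probes, not normalized, with a detection p-value beside it, per the file headers. The deposited log2 values of the series table match quantile-normalized raw intensities, once logged, to within 5e-07. The submitters' processing notes name GenomeStudio (2011.1) and R (2.15.3).

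Intensities were background-corrected with limma's neqc steps (normexp with negative controls inferred from detection p-values, offset 16), quantile normalized and taken to log2. Of all probes 30113 had 1 gene symbol, 8 several and 17202 none in the annotation used here; symbols were updated by gene identifier to RefSeq names (GRCh38.p14), which also supplied promoters and lengths. All 6 arrays were fitted with limma 3.58.1 in R 4.3.3 (group means, 3 contrasts, variances moderated with an intensity trend; residual degrees of freedom 3, prior 8.92). Threshold: Benjamini-Hochberg adjusted p under 0.05. The fit was tested on simulated data with independent noise on each value, so differences shared across an array were not covered. Intervals are 95% intervals of the fit. The number of arrays limits precision (median SE 0.0918).

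Members, gene lists and naming were chosen with earlier results of these data known. Named were PHF13, PHF6 and JADE2, every member called at 30 min or between 30 and 60 min, up to 6 falls and 6 rises per class at 60 min, the brightest uncalled member of each class, genes whose probes disagree, members at the detection edge and, per related list, the 2 largest calls in each direction. Other uncalled members were named for their role after their values were seen.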

Additional observations from a re-analysis of the deposited data

Results flagged for a closer look

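For 23 of the 70 genes the difference from control at 60 min departed from that at 30 min, tested as the contrast of the 60 and 30 min arrays (limma, adjusted p under 0.05 over 12547 genes, 2 arrays per group); over all genes 22.6% did so. The log2 difference of 60 and 30 min was -1.05 for JADE2 (adjusted p = 6.95e-05), -0.55 for JADE1 and -0.52 for BRPF3. Among methyltransferases it was -0.50 for SETD1A, -0.46 for SETD1B, -0.39 for KMT2E, -0.37 for SETD6 and -0.37 for KMT2C, and 0.28 for KMT5B. Among demethylases it was -0.49 for KDM4D and -0.34 for KDM2A. PHD finger genes gave -0.46 (PHF23), -0.31 (PHF13), -0.30 (PHF12) and -0.27 (PHF2). BRPF1 had -0.28, and the BRD genes had -0.38 (BRD2), -0.28 (BRD10) and -0.17 (BRD9). Polycomb subunits gave -0.38 (CBX2), -0.24 (CBX6) and 0.53 (CBX7). HDAC6 had 0.57 (adjusted p = 0.00346). Of these 23 calls 8 held in all 15 other settings and 15 were lost in at least 1, that of BRD9 in 13. Leaving out 30 min replicate 1 ended the calls of PHF13, PHF12 and CBX7, leaving out 30 min replicate 2 those of BRPF1, CBX6, KDM2A, KMT2C and SETD6, and leaving out either one those of PHF2, SETD1B, KMT2E, KMT5B, KDM4D, BRD10 and BRD9. Without background correction the difference was -0.26 for SETD1B; without 60 min replicate 2 that of KMT2E was -0.22.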

How the results depend on the processing

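Of the 28 members called at 60 min against control, 8 kept the call in all 15 other settings and 20 lost it in at least 1. None changed sign. Without the intensity trend 16 of the 28 calls were lost. The settings named above with a gene are not always all of those in which its call was lost. Calls against all genes and members moved as follows. At 30 min the all-gene count of 41 became 84 with median scaling, 168 with only the groups compared and 13 with no intensity trend, and ran from 11 to 168 over the omission of single arrays. The member count at 30 min, 0, became 1 with only the groups compared and 0 to 1 over the omissions, and the member median, -0.0194, ran from -0.0436 to -0.019. At 60 min against control the all-gene count of 2870 became 1654 with median scaling (404 higher, 1250 lower) and 1574 with no intensity trend, and 1235 to 2761 over the omissions. The member count of 28 became 12 with no intensity trend and 12 to 30 over the omissions; with median scaling it was 23 (1 higher, 22 lower). The member median of -0.159 became -0.123 without background correction and -0.235 with median scaling, where that of all genes was -0.0596, and ran from -0.189 to -0.124 over the omissions. Between 30 and 60 min the all-gene count of 2841 became 1664 with median scaling (443 higher, 1221 lower) and 1551 with no intensity trend, and 1329 to 2565 over the omissions. The member count of 23 became 11 with no intensity trend and 12 to 22 over the omissions. The member median of -0.123 became -0.106 without background correction, -0.202 with median scaling and -0.141 with genes detected on all arrays, and ran from -0.15 to -0.107 over the omissions. The causes were not tested. Differences between replicates 1 and 2 correlated between groups at 0.0377, 0.0764 and -0.056 across genes. With a single such difference per group, these values cannot tell whether the replicate numbers pair the samples. With the replicate number as a block, 35, 2886 and 2875 genes and 0, 28 and 22 members were called in the 3 comparisons. A lone array left after an omission is assumed to vary like the other groups. Signal near background limits HDAC9, PHF8, SETD7, HDAC5 and HDAC10, which were detected on 2 to 5 arrays and had the widest intervals.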
